A study of Mus musculus with 4 samples.

Results

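Cluster 1 was the main deposited cluster of the mesenchymal class that the authors named EMT-like, after epithelial-mesenchymal transition. Its members were the cells that carried both this class name and this cluster number in the deposited annotation, 4369 of 45936 cells. Control libraries 1 and 2 held 1762 and 1178 of them, and knockdown libraries 1 and 2 held 896 and 533. The cells came from mouse alveolospheres, organoids in which alveolar type 2 (AT2) cells isolated by LysoTracker, a dye of acidic organelles, grew with PDGFRα-positive lung fibroblasts in MTEC/Plus medium. The genotype of the control group was wildtype. In the knockdown group the AT2 cells were wildtype and YAP and TAZ were knocked down only in the PDGFRα-positive cells. Doxycycline at 3 µg/ml was given to all 4 libraries, controls included, starting on day 7, and collection followed on day 14. The labels list 2 biological replicates per group, without saying that they were separate animals or cultures, and 1 batch. They do not describe the construct or give the age of the mice.

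Epithelial-mesenchymal transition is the programme by which epithelial cells lose junction proteins and gain mesenchymal ones, driven by transcription factors of the Snail, Twist and Zeb families. YAP (gene Yap1) and TAZ (gene Wwtr1) are transcriptional co-activators held in check by the Hippo kinases, and they act on DNA through the TEAD factors. In lung fibroblasts they are known for their response to mechanical tension and for the expression of matrix and growth factor genes. Fibroblasts also form the niche of AT2 cells, which they supply with Wnt, FGF and BMP signals.

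The expression profile of cluster 1 was mesenchymal, and epithelial junction genes were not above the level of the other mesenchymal clusters in every library. Levels were CPM, a gene's UMIs scaled to a common library total, where a UMI marks 1 captured RNA molecule, and the reference was the equal-weight mean of the 9 other mesenchymal clusters that had at least 50 cells in every library. Of 12 mesenchymal identity genes, 8 were above that reference in all 4 libraries and 2 were above it in 0 libraries. The same shares over all genes were not computed. Thy1, a surface marker of many fibroblasts, averaged 1450 CPM against 653 CPM, and Pdgfra, the receptor by which the fibroblasts were isolated, 369 CPM against 311 CPM. Of 14 epithelial junction and keratin genes, 0 were above it in all 4 libraries. Cdh1, which encodes E-cadherin, averaged 5.93 CPM in cluster 1 and 7.04 CPM in the reference. Of 8 transcription factors of epithelial-mesenchymal transition, Prrx1 (303 CPM against 209 CPM) and Foxc2 (10.2 CPM against 4.88 CPM) were above it in all 4 libraries. Snai1, Snai2, Zeb1 and Zeb2 were below it in all 4, and Twist1 and Twist2 were above it in some libraries only. The Snail and Zeb genes thus did not set cluster 1 above the other mesenchymal clusters. That reference is mesenchymal and includes EMT-like cluster 25, so it cannot decide on the deposited class name. The cells are called cluster 1 here. Clusters were made from these same genes, so the levels describe them and were not tested.

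Across 8532 genes, the log level in cluster 1 had its highest mean r over libraries with fibroblast cluster 8 (0.956). The inflammatory fibroblast clusters 3 (0.952) and 10 (0.946) followed. The order differed between the groups. In the control libraries r was 0.973 and 0.969 with cluster 3, 0.962 and 0.962 with cluster 10, and 0.960 and 0.959 with cluster 8. Cluster 8 had 631 and 347 cells in the knockdown libraries, cluster 3 had 222 and 207, and cluster 10 had 152 and 86. In the knockdown libraries r was highest with cluster 8, at 0.9573 and 0.9497. It was 0.949 and 0.939 with the EMT-like cluster 25, 0.948 and 0.942 with fibroblast cluster 5, and 0.942 and 0.925 with cluster 3. Against 4 epithelial clusters present in all libraries the mean r over libraries lay between 0.607 and 0.635, with 0.552 to 0.666 in single libraries. These correlations are across genes within libraries and share library, depth and any free RNA. A finer deposited label called 82.9% of the cells "EMT?", with 79.4% to 90.6% per library. The other EMT-like clusters, 25 and 33, held 772 cells, and cluster 33 had 0 cells in both knockdown libraries.

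Alpl, Gdf10, Fbln1 and Sorcs1, the given marker genes, were high in cluster 1 and in cluster 25. Fbln1 encodes fibulin 1, a secreted glycoprotein of the extracellular matrix (chromosome 15, 85205949 to 85286535, GRCm38, plus strand). Its level in cluster 1 averaged 1063 CPM, 2.94 times the reference, and that in EMT-like cluster 25 averaged 965 CPM. EMT-like cluster 33 had 1710 CPM in control library 1, the only library with enough of its cells, against 768 CPM in cluster 1 there. Outside the EMT-like class cluster 10 came next at 729 CPM. Alpl, the tissue-nonspecific alkaline phosphatase (chromosome 4, 137741733 to 137796384), averaged 112 CPM, 4.04 times the reference. The spread over libraries in cluster 1, 92.7 to 131.7 CPM, overlapped that of cluster 25, 109.6 to 153.9 CPM, and both lay above cluster 10 at 32.2 CPM. Gdf10, a growth factor of the TGF-beta superfamily also known as BMP3b (chromosome 14, 33923587 to 33937983), averaged 174 CPM in cluster 1, 188 CPM in cluster 25 and 93.3 CPM in cluster 10. Sorcs1, a sorting receptor of the VPS10 family (chromosome 19, 50143299 to 50678646), averaged 122 CPM, above cluster 25 at 84.6 CPM and cluster 10 at 84.1 CPM.

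**Figure D1:**
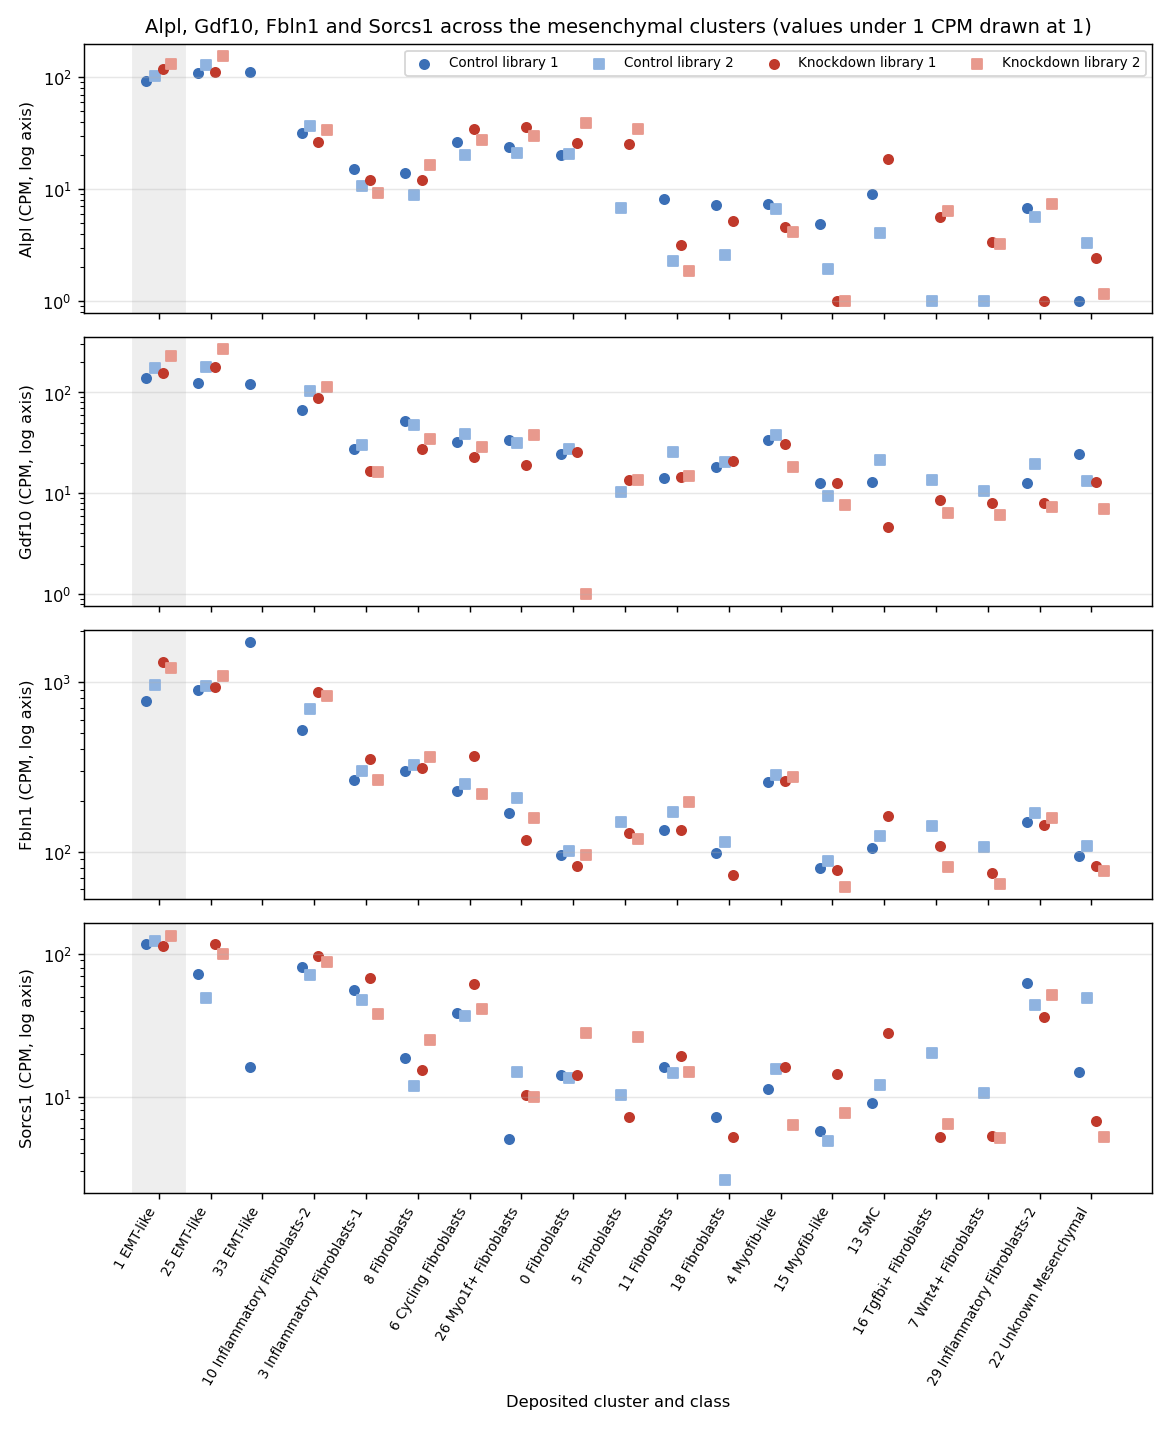
Level of the 4 marker genes (CPM, log axis) in each deposited mesenchymal cluster; each point is 1 library, drawn where the library had enough cells of the cluster, and cluster 1 is shaded. Clusters 1 and 25 carry the highest Alpl and Gdf10 levels among clusters present in all libraries, while the mean Sorcs1 level is highest in cluster 1.

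The marker genes were also counted in single cells. Each cell was thinned to 2000 UMIs and shallower cells were left out, which kept 98.6% to 99.9% of cluster 1 per library. A UMI of at least 2 of the 4 genes was then present in 33.7% and 37.3% of cluster 1 cells in the control libraries and in 38.9% and 44.8% in the knockdown libraries. In the other mesenchymal cells this share was 3.59% to 5.56%. All 4 genes were seen in 0.921% and 0.687% of cluster 1 cells in the control libraries and in 1.12% and 1.69% in the knockdown libraries. Whether the genes met in the same cells more often than their separate shares would give was not tested. The clusters were made from these same genes, so the contrast with the other cells is description only. For Alpl alone the thinned share was 15.4%, 15.5%, 18.1% and 21.5% in cluster 1 (28.3%, 31.5%, 38.4% and 43.2% without thinning). It was at most 1.08% in epithelial cluster 14, of the deposited AT2 class, whose cells had 3778 to 6163 median UMIs per library. Fbln1 had a UMI in 68.4%, 73.4%, 81.8% and 82.3% of cluster 1 cells, against 28.6%, 31.3%, 25.4% and 23.5% of the other mesenchymal cells and 5.08% to 8.09% of cluster 14, which should lack this mesenchymal gene. The Fbln1 share without thinning was 84.5% to 97.6% in cluster 1 and 10.4% to 16% in cluster 14.

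Secreted factors, channels and receptors stood beside the given markers among the genes with a high level in cluster 1. Among 1460 genes with at least 20 CPM there and a level above the reference in every library, 79 exceeded it more than 2-fold. The 15 highest ratios included Esm1 (7.22), which encodes the secreted proteoglycan endocan. Its mean passed 20 CPM through the knockdown libraries (9.48 and 12.3 against 40.9 and 53.7 CPM without normalisation), and in the control libraries the inflammatory fibroblast cluster 29, which is not in the reference, had more (10.7 and 15.3 CPM). They also included Il11 (3.92), a cytokine of the IL-6 family, Gria4 (4.17), an AMPA-type glutamate receptor subunit, Nppc (3.80), C-type natriuretic peptide, and Kcnma1 (3.79), a calcium-activated potassium channel. Dgkg (3.72), a diacylglycerol kinase, Slc6a5 (3.61), a glycine transporter, Ly6a (3.57), which encodes the stem cell antigen Sca-1, and Cd200 (3.55), a ligand that restrains myeloid cells, followed.

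Depth per cell was higher in both knockdown libraries, and quality differed between libraries. Cluster 1 sums held 8969196 and 6491696 UMIs in the control libraries and 6185311 and 4152769 UMIs in the knockdown libraries, and median UMIs per cell were 4294, 4680.5, 5983.5 and 7273. The median mitochondrial share was 24.7%, 22.4%, 27.4% and 20.4%, and cells under 20% made up 21.7%, 31.5%, 6.14% and 46.7%, fewest in knockdown library 1. Of all cell barcodes 1073 occurred in more than 1 library, 8 of them in cluster 1. Knockdown against control log2 changes in cluster 1 correlated with gene span (Spearman's rho -0.346 across 12953 genes), against 0.248 between the control libraries and 0.259 between the knockdown libraries. The part of depth, mitochondrial share and gene span in the results below was not tested beyond the alternatives given beside them.

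No change in the share of cluster 1 cells was seen beyond the spread of the libraries. Cluster 1 made up 14.6% and 10.3% of mesenchymal cells in the control libraries and 12% and 10.4% in the knockdown libraries. The means were 12.4% ± 3.09 (SD, n = 2) and 11.2% ± 1.12 (SD, n = 2), and a two-sided exact permutation test gave p = 1.0, where 0.333 is the smallest p that 2 against 2 libraries allow. The direction depended on the denominator and on control library 1, without which the knockdown share was 0.936 points higher. Clusters 0, 13, 15 and 18 were nearly all control cells and clusters 5, 7 and 16 nearly all knockdown cells, and among the clusters with 50 cells in every library the share was 24.2% and 16.3% against 25.6% and 21.4%.

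**Figure D2:**
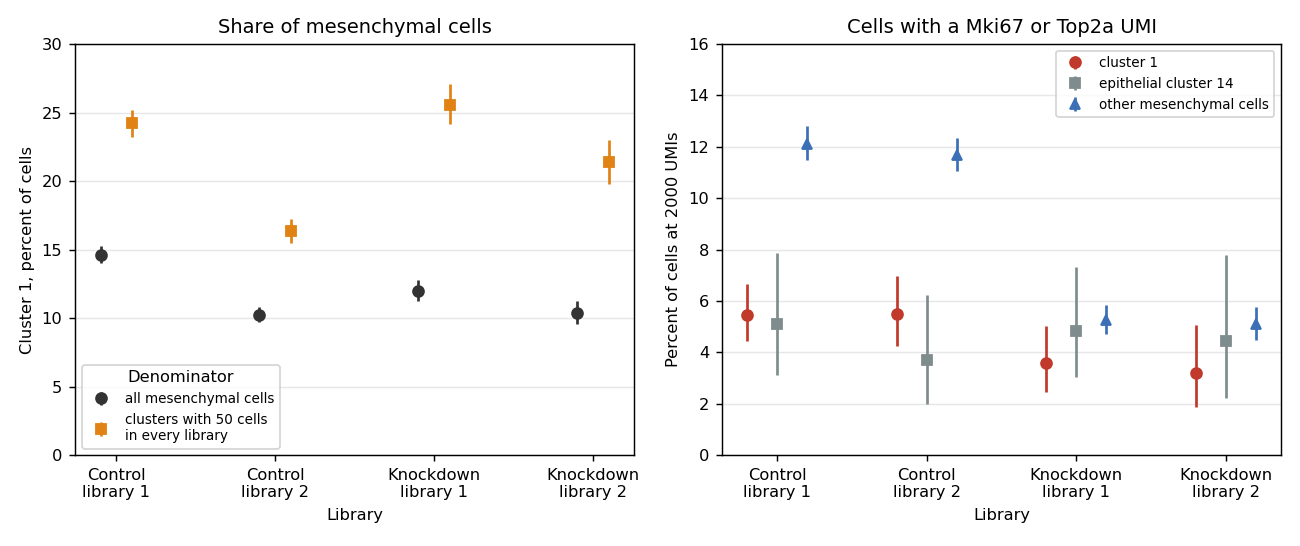
Left, share of cluster 1 among mesenchymal cells by library for 2 denominators; right, share of cells with a Mki67 or Top2a UMI at 2000 UMIs per cell. Bars are exact 95% binomial intervals for counting error only; the shares of both groups overlap on the left, and on the right cluster 1 lies near epithelial cluster 14 in every library.

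Few cells of cluster 1 carried RNA of the proliferation genes Mki67 and Top2a, and their share was close to that of an epithelial cluster outside the cycling classes. At 2000 UMIs per cell a UMI of either was found in 5.47% and 5.49% of control cells and in 3.58% and 3.20% of knockdown cells. The difference of means, -2.09 points, had an exact two-sided permutation p of 0.333, the smallest possible. In epithelial cluster 14 the share was 5.12%, 3.69%, 4.85% and 4.44%, and in AT2 cluster 9 it was 6.51% to 10.8%. The cluster 1 share was therefore not read as cycling, nor its difference as a change. Without thinning the shares were 13.1%, 12.9%, 10.0% and 10.7%. The cycling fibroblast cluster reached 56.9% to 69.3%. Of 24 G2/M genes and 24 S phase genes, 0 were above the reference in all 4 libraries. That reference includes the cycling fibroblast cluster 6, so the count does not compare cluster 1 with non-cycling clusters alone.

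The targeted genes were lower in cluster 1 of the knockdown libraries, and only Yap1 passed the test. Levels from here on are normalised CPM of summed cluster 1 UMIs, fold changes are knockdown against control on the log2 scale with their SE, and adjusted p-values are from edgeR's quasi-likelihood test over 12961 genes unless another source is named, with a threshold of 0.05. Yap1 (chromosome 9, 7931999 to 8004596, minus strand) had 70.0 and 67.1 CPM in the control libraries and 45.8 and 36.5 CPM in the knockdown libraries. It fell by 0.73 ± 0.16 (adjusted p = 0.0122), a call that did not hold with knockdown library 2 left out (adjusted p = 0.174) or among cells under 20% mitochondrial UMIs (0.0786). Wwtr1 (chromosome 3, 57455649 to 57575910, minus strand) had 261 and 249 CPM against 180 and 180 CPM, a log2 change of -0.50 ± 0.15 that did not pass (adjusted p = 0.0716). The groups did not overlap for either gene, as was the case for 50.7% of all genes tested. The difference from the change in the other mesenchymal cells was -0.01 ± 0.10 for Yap1 and -0.15 ± 0.07 for Wwtr1, and neither passed the interaction test (adjusted p = 0.98 and 0.37). Fewer cells with RNA and less RNA per cell cannot be told apart in these sums.

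Of 22 YAP/TAZ target genes in a list of common targets, 0 rose and 1 fell, beside 2.25% risen and 2.63% fallen among all genes tested. The median log2 change of the list was -0.23, against 0.01 over all genes. The gene that fell was Crim1, a transmembrane protein that binds BMPs, at 70.0 and 58.8 CPM in the control libraries and 33 and 27.4 CPM in the knockdown libraries. Both knockdown libraries lay below both control libraries, where 50.7% of all genes tested had groups without overlap. The log2 change was -1.09 ± 0.16 (adjusted p = 0.000869), past the threshold in 17 of 17 alternatives. Of 21 Hippo pathway genes tested, 0 rose and 3 fell: Yap1 itself, the TEAD cofactor gene Vgll3 (28.3 and 27.4 against 12.8 and 16.4 CPM, log2 change -0.95) and Wwc2 (63.8 and 54.7 against 40.7 and 28.8 CPM, -0.76), a regulator upstream of the kinases. Vgll3 did not pass with knockdown library 1 left out (adjusted p = 0.06), nor Wwc2 without knockdown library 2 (0.234). The Hippo count was 7 fallen without control library 2 and 1 without knockdown library 2.

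The 250 bases before the annotated start are shown for Crim1, the target that fell, and for Esm1, the gene with the largest difference from the other mesenchymal cells described further below. They are from RefSeq on GRCm38.p6, 5′ to 3′ on the strand of the gene, with the core TEAD motif CATTCC, or its reverse complement GGAATG, in capitals. Crim1 is at chr17:78199998-78200247, plus strand, and Esm1 at chr13:113209409-113209658, plus strand.
Crim1: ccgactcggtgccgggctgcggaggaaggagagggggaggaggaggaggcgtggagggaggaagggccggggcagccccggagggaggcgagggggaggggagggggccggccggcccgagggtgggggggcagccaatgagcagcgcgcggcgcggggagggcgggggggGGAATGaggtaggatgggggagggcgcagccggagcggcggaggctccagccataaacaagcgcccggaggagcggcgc
Esm1: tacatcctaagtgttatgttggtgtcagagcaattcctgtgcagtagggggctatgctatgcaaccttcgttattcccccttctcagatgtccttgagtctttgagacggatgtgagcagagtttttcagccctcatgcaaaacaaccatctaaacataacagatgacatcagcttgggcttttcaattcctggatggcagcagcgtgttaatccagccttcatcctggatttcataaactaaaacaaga
The Crim1 window held 1 match and the Esm1 window 0. CATTCC, searched on both strands, was present in 14.4% of the 27025 windows in the table, and in 13% of the 10013 tested genes that matched by symbol. It was found in 29 of 217 genes that rose (13.4%) and 44 of 255 that fell (17.3%). The AP-1 motif TGANTCA occurred in 5.60%, 7.37% and 9.80% of the tested, risen and fallen genes. A match describes the letters of the window and is no evidence of binding.

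The knockdown changed 633 of 12961 genes in cluster 1 (4.88%), of which 292 rose (2.25%) and 341 fell (2.63%), and 240 changed at least 2-fold. The groups did not overlap for 50.7% of the genes. The count was 1461 without control library 2 and 359 without knockdown library 2, and it was 355 with DESeq2 and 159 among cells under 20% mitochondrial UMIs. The median log2 change of all genes was 0.01.

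The largest rises included an adhesion receptor, a protease, chemokines and a vascular ligand. Adgrg1, an adhesion G protein-coupled receptor, went from 2.32 and 2.30 CPM to 63.9 and 59.3 CPM (log2 change 4.72 ± 0.21, adjusted p = 9.36e-10). The epithelial cells had more of it, 156 CPM in the control and 193 CPM in the knockdown libraries. Mmp9, the secreted gelatinase B, went from 2.76 and 1.38 CPM to 43.9 and 27.6 CPM (4.05 ± 0.29, adjusted p = 7.33e-07). For both genes each knockdown library was above each control library, which the rule for the largest rises required. The transcription factor gene Cebpb had 91.8 and 71.3 CPM against 283 and 578 CPM (2.39 ± 0.26), with the knockdown libraries well apart from each other. Ccl11, which encodes the chemokine eotaxin, had 59.0 and 118 CPM against 371 and 440 CPM (2.20 ± 0.24, adjusted p = 7.59e-05). Angpt2, a ligand of the endothelial receptor Tie2, had 3.09 and 5.22 CPM against 19.6 and 16.2 CPM (2.15 ± 0.26). The kinase gene Dapk3 (2.68), the linker histone gene H1fx (2.09), the claudin gene Cldn2 (2.02), the protease inhibitor family gene Wfdc17 (3.03) and Etl4 (1.91) completed the rule together with Esm1 and the chemokine gene Ccl6. Ccl6 had 0 CPM in control library 2 and was not called with DESeq2 (adjusted p = 0.46). These genes rose too in the other mesenchymal cells except Esm1. Mmp9, Dapk3 and Etl4, like Adgrg1, had a higher mean in the epithelial cells of the knockdown libraries than in cluster 1. The part of free epithelial RNA in these rises was not tested.

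Genes known from airway epithelium made up most of the 12 largest falls. Ltf, Adam28, Agr2, Cbr2, Muc5b, Bpifa1, Fxyd3, Cxcl17 and Pglyrp1 were 9 of these 12, with Col8a1, the sulfotransferase gene Hs6st2 and Xkr4 as the others. Bpifa1, a secreted airway protein, had 60.9 and 71.9 CPM in control cells of cluster 1 and 0 and 19.9 CPM in knockdown cells. In the other mesenchymal cells it went from 74.1 to 11.5 CPM. The summed level of 7 airway secretory markers in cluster 1 was 1278, 281, 22 and 300 CPM, beside 1362, 313, 28.8 and 295 CPM in the other mesenchymal cells. Of these 7 markers, 0 rose and 2 fell, Muc5b and Bpifa1, beside 2.25% risen and 2.63% fallen of all genes tested. Muc5b missed the threshold without control library 1 (adjusted p = 0.208), and neither passed with DESeq2 (0.763 and 0.828). The basal cell keratins Krt5, Krt14 and Krt15 fell from at most 8.06 CPM to at most 0.234 CPM. The part of free epithelial RNA in these changes was not tested.

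A stricter limit on epithelial genes, added after the data were seen, required the epithelial level to be no higher than that in cluster 1. The 12 largest falls then held genes of several kinds, 2 collagen genes among them. Col8a1, a short-chain collagen of basement membranes, had 43.3 and 63.3 CPM in the control libraries and 7.66 and 11 CPM in the knockdown libraries (log2 change -2.53 ± 0.23, adjusted p = 6.53e-06). Clca3a1, of a family of chloride channel regulators, had 57.9 and 49.3 CPM against 12.1 and 10.3 CPM (-2.25). Dgkg had 52.4 and 46.2 CPM against 20.1 and 11 CPM (-1.63 ± 0.21), and Col11a1, a fibrillar collagen, 37.1 and 36.3 CPM against 15.3 and 12.2 CPM (-1.40 ± 0.18). In each of these genes both knockdown libraries were below both control libraries, which the rule required, and each passed in 17 of 17 alternatives. Kirrel3, Lingo2 and Opcml, which encode neural adhesion proteins, Fgf23, a phosphate-regulating hormone, the guanine nucleotide exchange factor gene Dock10, Xkr4, Ccn5 and the unnamed transcript Gm15737 made up the rest. All 12 of these genes also fell past the threshold in the other mesenchymal cells. The log2 change there was -2.14 for Col8a1, -2.78 for Clca3a1, -2.24 for Col11a1 and -0.50 for Dgkg. Under the same limit the rises lost Adgrg1, Mmp9, Dapk3 and Etl4. They added Megf11, the chloride channel family gene Ano8, Rbp4, the plasma retinol carrier, and Dkk2, a secreted Wnt antagonist.

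**Figure D3:**
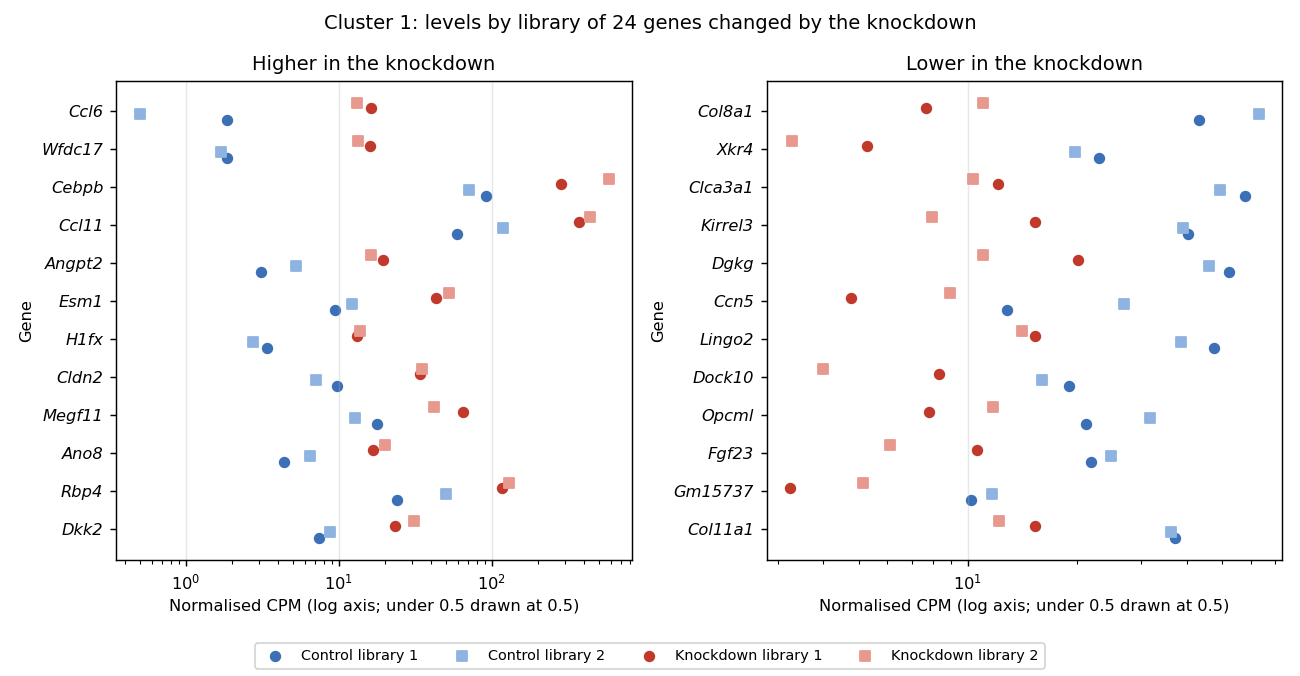
Normalised CPM in cluster 1 (log axis) of the 12 largest rises and 12 largest falls under the stricter epithelial limit; each point is 1 library. The groups do not overlap in any of these genes, which the rule required.

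Of 11 genes known from fibrotic fibroblasts, 0 rose and 6 fell, with a median log2 change of -0.59. Over all genes 2.25% rose, 2.63% fell and the median was 0.01. The summed level of the list went the other way, with 8870 and 11766 CPM in the control libraries and 14831 and 12380 CPM in the knockdown libraries. In the other mesenchymal cells the sums were 12815 and 18541 CPM against 24744 and 29846 CPM. The count of falls thus does not describe the total RNA of these genes. Besides Col8a1 and Col11a1, the fibrotic genes that fell were the matricellular genes Tnc and Postn, the latent TGF-beta binding protein gene Ltbp2 and Col12a1. Tnc, tenascin C, had 1091 and 1136 CPM in the control libraries and 622 and 574 CPM in the knockdown libraries (-0.90 ± 0.17). Postn, periostin, had 23.3 and 23.4 CPM against 8.51 and 14.1 CPM (-1.08 ± 0.22). The count was 3 without knockdown library 2, where Tnc (adjusted p = 0.0555), Ltbp2 (0.0794) and Col12a1 (0.274) did not pass. It was 4 without knockdown library 1, where Postn (0.0899) and Col12a1 (0.108) did not pass. Among 22 collagens and other matrix genes 1 rose and 3 fell, and the one that rose was Col15a1, a basement membrane zone collagen, at 114 and 113 CPM against 230 and 225 CPM (1.00 ± 0.15). Of 19 TGF-beta pathway genes 1 rose, Tgfb3, and 1 fell, Ltbp2.

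Axon guidance and adhesion genes changed in both directions, with 4 of 24 risen and 7 fallen (2.25% and 2.63% of all genes tested) and a median log2 change of -0.30. The Slit ligand gene Slit2, known also as a marker of alveolar fibroblasts, had 785 and 741 CPM against 405 and 383 CPM (-0.95 ± 0.17, adjusted p = 0.00335). Sema3d, a secreted semaphorin, had 137 and 157 CPM against 79.7 and 64.2 CPM (-1.02 ± 0.16). Slit3, the semaphorin genes Sema3a and Sema3c and the receptor genes Robo2 and Unc5c also fell. The fallen count was 2 without knockdown library 2, and it was 2 as well among cells under 20% mitochondrial UMIs and after a correction for gene span. Those that rose included Adgrg1, Megf11 (17.9 and 12.8 against 64.7 and 42.2 CPM) and Megf10.

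Of 16 Wnt ligands and modulators tested 6 rose and 0 fell, with a median log2 change of 0.56, against 2.25% of all genes. Wnt4, the ligand that the title of the series names (chromosome 4, 137277489 to 137299726, plus strand), had 19.99 and 18.6 CPM in the control libraries and 34.4 and 37.7 CPM in the knockdown libraries (0.89 ± 0.16, adjusted p = 0.00464). Dkk2 had 7.40 and 8.76 CPM against 23.2 and 30.9 CPM (1.74 ± 0.21). The secreted Frizzled-related gene Sfrp4 had 27.4 and 47.9 CPM against 70.7 and 98.1 CPM (1.17 ± 0.22). The knockdown libraries were above the control libraries in all 3 genes, and the groups did not overlap for 50.7% of all genes tested. Wnt5a, Wnt2 and Dkk3 were the others, and none of these 3 passed without knockdown library 2 (adjusted p = 0.464, 0.16 and 0.0736). The risen count was 9 without control library 2 and 3 without knockdown library 2. Of 14 Wnt/beta-catenin target genes 4 rose and 0 fell, namely Dkk2, Apcdd1, Tnfrsf19 and Sp5. Leaving out 1 library in turn gave 1 to 3 risen and 0 to 2 fallen genes in this list.

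Of 22 inflammatory genes 7 rose and 1 fell, beside 2.25% risen and 2.63% fallen of all genes tested. Besides Ccl11 and Cebpb, Cxcl5, a neutrophil chemokine, had 153 and 169 CPM against 306 and 293 CPM (0.90 ± 0.16, adjusted p = 0.00323), and the alarmin gene Il33 had 74.3 and 87.1 CPM against 127 and 153 CPM (0.79 ± 0.15). Cxcl14, Cxcl10 and Ccl20 also rose, the last from at most 0.221 CPM, and Il1rl1, the receptor of IL-33, fell (9.61 and 13.8 against 4.26 and 5.62 CPM). The risen count was 4 without knockdown library 1 and 3 among cells under 20% mitochondrial UMIs. Immune markers, 8 in all, summed to 12.8, 10.8, 21.1 and 15 CPM in cluster 1, with Cd3e at 0 in all libraries, and the part of immune cells was not tested.

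Insulin-like growth factor binding protein genes were among the abundant genes that rose. Igfbp7 had 911 and 1539 CPM in the control libraries and 4135 and 3903 CPM in the knockdown libraries (1.71 ± 0.23, adjusted p = 0.000397), and Igfbp5 had 453 and 575 CPM against 912 and 1078 CPM (0.95 ± 0.19). Of 9 genes of this group 2 rose and 0 fell, beside 2.25% and 2.63% of all genes tested. Among 14 p53 and senescence genes 4 rose and 0 fell: Igfbp7, the cell cycle inhibitor genes Cdkn2a and Cdkn2b, and Plaur. Cdkn2b had 15.2 and 14.4 CPM against 28.3 and 26.2 CPM (0.88 ± 0.17), while Cdkn2a and Plaur missed the threshold without knockdown library 2 (adjusted p = 0.234 and 0.16) or without control library 1 (0.141 and 0.0686). Of 16 immediate early and heat shock genes 3 rose, Hspb1 (28.3 and 49.5 against 102 and 130 CPM), Jund (170 and 157 against 281 and 290 CPM) and Zfp36.

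Of 19 fibulin and elastic fibre genes 4 rose and 1 fell (2.25% and 2.63% of all genes tested), with a median log2 change of 0.15. Efemp1, fibulin 3, had 57.2 and 69.6 CPM against 106 and 108 CPM (0.75 ± 0.15), and Mfap4, Ltbp4 and Fbln7 also rose. Fbln5, which organises elastin, fell from 15.4 and 17.2 CPM to 8.003 and 6.79 CPM (-1.12 ± 0.22). Without control library 1, 1 gene rose and 2 fell, and without control library 2, 7 rose and 3 fell. The marker gene Fbln1 had 761 and 953 CPM against 1384 and 1182 CPM, and did not pass (0.58 ± 0.19, adjusted p = 0.0895). Neither did Alpl (91.8 and 103 against 124 and 128 CPM, 0.37 ± 0.14, adjusted p = 0.16), Gdf10 (138 and 173 against 164 and 223 CPM, 0.31 ± 0.18, adjusted p = 0.344) or Sorcs1 (116 and 122 against 120 and 131 CPM, 0.07 ± 0.14, adjusted p = 0.825). The change of Sorcs1 was -0.13 among cells under 20% mitochondrial UMIs.

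Of 21 AT2 niche growth factor genes 4 rose and 1 fell, beside 2.25% and 2.63% of all genes tested. Fst, follistatin, an antagonist of activin and BMPs, had 68.5 and 80.7 CPM against 144 and 142 CPM (0.94 ± 0.15, adjusted p = 0.00138), and Angpt2, Il33 and Angptl4 rose as well. Angptl4 missed the threshold without control library 1 (adjusted p = 0.205) or knockdown library 2 (0.0591), and among cells under 20% mitochondrial UMIs (0.348). Angpt1 fell from 43.1 and 41.3 CPM to 30.1 and 21.1 CPM, which missed the threshold without knockdown library 2 (adjusted p = 0.366). In the BMP group of 19 genes Fst and Bmp4 rose and the receptor gene Bmpr1b fell. Bmp4 passed in 10 of 17 alternatives and missed the threshold without control library 1 (adjusted p = 0.286), without knockdown library 1 (0.0597), with DESeq2 (0.117) and among cells under 20% mitochondrial UMIs (0.609), among others. Bmpr1b passed in 14 of 17 and missed it without knockdown library 2 (0.0607), among those cells (0.28) and after a correction for gene span (0.0747). Of 15 alveolar fibroblast and lipofibroblast genes 4 rose and 3 fell. Inmt, a methyltransferase and common marker of these cells, had 81.2 and 114 CPM against 156 and 230 CPM (0.99 ± 0.20), whereas Limch1 had 36.8 and 43.9 CPM against 17.0 and 10.5 CPM (-1.51 ± 0.20).

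AT2 marker RNA in cluster 1 moved with the groups as well. Of 12 AT2 markers 7 rose and 0 fell, beside 2.25% and 2.63% of all genes tested. Their summed level was 854 and 940 CPM in the control libraries and 2253 and 1227 CPM in the knockdown libraries. In the other mesenchymal cells the sums were 868, 950, 2651 and 1313 CPM. Unnormalised, the cluster 1 level was 1.14%, 0.923%, 2.35% and 1.13% of that in AT2 cluster 9 of the same library. Sftpc, surfactant protein C, had 593 and 674 CPM against 1627 and 860 CPM, and it missed the threshold without knockdown library 1 (adjusted p = 0.34) or with DESeq2 (0.316). The part of free AT2 RNA in these values was not tested. Endothelial markers summed to 8.39 and 6.76 CPM against 15.8 and 16.2 CPM, and Tie1 was at 0 in all libraries, while Emcn rose (3.20 and 2.61 against 8.51 and 8.20 CPM).

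Identity genes passed the test in 2 of 12, 1 of 8 and 1 of 13 cases in the 3 lists that follow, beside 4.88% of all genes tested. Among 12 mesenchymal identity genes Thy1 rose (953 and 1145 against 1694 and 2023 CPM, 0.82 ± 0.19) and S100a4 fell (29.7 and 36.3 against 11.9 and 18.5 CPM, -1.14 ± 0.21). Thy1 missed the threshold without knockdown library 2 (adjusted p = 0.134). Of 8 transcription factors of epithelial-mesenchymal transition 0 rose and 1 fell, Prrx1, at 375 and 354 CPM against 255 and 230 CPM (-0.59 ± 0.16, adjusted p = 0.0435), and missed the threshold without control library 1 (0.0828), knockdown library 1 (0.0948) or knockdown library 2 (0.37). Of 13 epithelial junction and keratin genes tested 0 rose and Krt19 fell (50.1 and 49.6 against 27.9 and 26.9 CPM), with 51.9 to 29.1 CPM in the other mesenchymal cells. Among the high ratio genes Cd200 rose (36.7 and 55.8 against 96.5 and 87.4 CPM) and Kcnma1 fell (50.5 and 49.8 against 31.7 and 22.3 CPM), as did Dgkg, Slc6a5 and Tmem190.

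**Figure D4:**
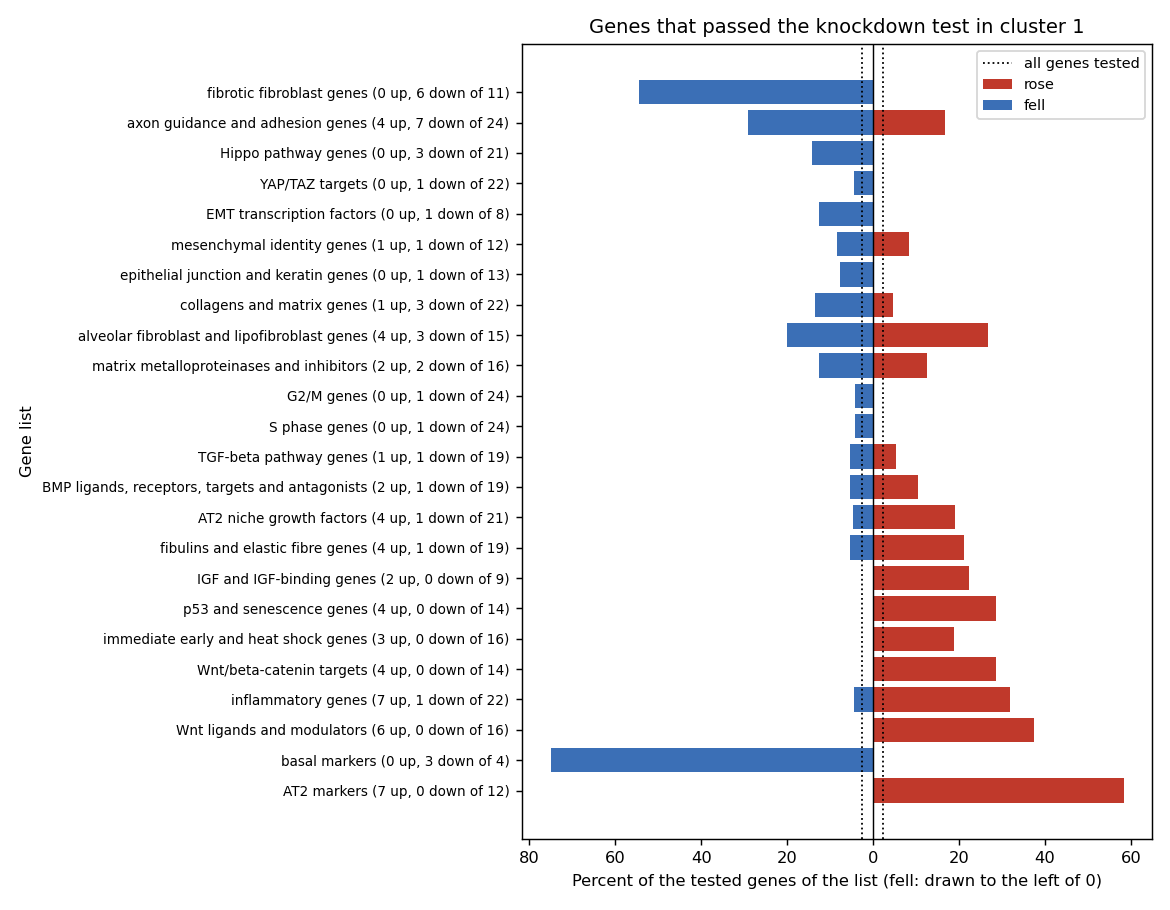
Percent of the tested genes of each of 24 lists that rose (right) or fell (left) in cluster 1 at an adjusted p under 0.05, with counts in the labels; dotted lines mark the 2.25% and 2.63% of all genes tested. Fibrotic fibroblast genes lie to the left, with 6 of 11 fallen, and Wnt ligands and modulators to the right, with 6 of 16 risen.

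The counts of the other lists stand beside 2.25% risen and 2.63% fallen of all genes tested. Smooth muscle contractile genes had 0 of 13 risen and 2 fallen (Des and Synpo2), and matrix metalloproteinases and inhibitors 2 risen and 2 fallen of 16. Adventitial fibroblast genes had 2 of 13 risen, peribronchial and myofibroblast genes 2 of 9, mineralisation and osteochondral genes 1 of 9 and pericyte genes 1 of 4. Hypoxia and glycolysis genes had 0 of 13 changed and VPS10 sorting receptors 0 of 4, while interferon response genes had 0 of 13 risen and 1 fallen, Bst2. Mki67 fell among 24 G2/M genes (8.62 and 9.22 against 4.77 and 3.28 CPM), which missed the threshold without knockdown library 2 (adjusted p = 0.186), and Dtl among 24 S phase genes. AT1 markers (0 of 5), ciliated markers (0 of 2), immune markers (0 of 4) and glial and neural markers (0 of 2) had no change past the threshold, and mesothelial markers 1 of 4 fallen, Krt19.

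The response of cluster 1 differed from that of the other mesenchymal cells for 586 of 16040 genes (3.65%), with 337 more positive and 249 more negative in cluster 1, by the interaction term of edgeR's quasi-likelihood test with the library as a block. The other mesenchymal cells consisted of different clusters in the 2 groups, as described above. With the 9 clusters present in every library at equal weight, 98 of 16300 genes passed (0.601%). For this, each gene's share of UMIs was averaged over the clusters and scaled to the library total of the other mesenchymal cells. These rescaled values were rounded and fitted as counts, so the fit took no account of how few cells some clusters had. Of the 586 genes 67 passed both ways, 64 of them in the same direction, and the others, Meg3 and Tmcc3 among them, in opposite directions. Limma voom with the library as a random effect called 46 genes, and 369 were called without control library 1. In the following sentences the difference is given first against all other mesenchymal cells and then at equal weight, both on the log2 scale.

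Esm1 had the largest positive difference. It is known as a product of endothelial tip cells and lies on chromosome 13 at 113209659 to 113218098, plus strand. In cluster 1 it had 9.39 and 12.3 CPM in the control libraries and 43.1 and 52.2 CPM in the knockdown libraries (2.14 ± 0.19, adjusted p = 5.14e-06). The groups did not overlap, which the rule for the largest rises required. In the other mesenchymal cells its mean was 3.46 CPM in control and 3.29 CPM in knockdown libraries. The difference was 2.24 ± 0.20 (adjusted p = 1.2e-10) and 1.41 (adjusted p = 0.0015), and it passed in 10 of 10 alternatives. In cluster 25 its level was 5.06, 0, 5.36 and 17.5 CPM.

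Mmp3, which encodes the matrix protease stromelysin, had a more positive response in cluster 1. It had 542 and 749 CPM against 1141 and 1027 CPM, while the other mesenchymal cells went from 315 to 237 CPM, a difference of 1.18 ± 0.06 (adjusted p = 8.5e-18) and 0.49 (1.6e-05). Its rise within cluster 1 (adjusted p = 0.033) missed the threshold without control library 1 (0.104) or without knockdown library 1 (0.094). For Fbln1 the other cells went from 249 to 223 CPM, a difference of 0.77 ± 0.06 (8.3e-13) and 0.38 (0.00035). For Efemp1 the differences were 0.66 and 0.48, and for the collagen gene Col3a1 0.41 and 0.21. Stc1, the glycoprotein hormone stanniocalcin 1, rose from 38.6 and 44.6 CPM to 79.7 and 109 CPM against 35.6 to 40.03 CPM in the other cells, with differences of 0.99 and 0.67. The ferritin receptor gene Scara5 (0.75 and 0.60) and the chemokine genes Cxcl1 (0.82 and 0.40) and Cxcl2 (1.02 and 0.66) also passed both ways. Other matrix genes passed both ways in the opposite direction, among them Thbs1 (-0.32 and -0.33) and Adamts9 (-0.35 and -0.28). With the library as a random effect (limma voom) the differences of Col3a1 (adjusted p = 0.41), Efemp1 (0.0615), Scara5 (0.126), Thbs1 (0.323) and Adamts9 (0.216) missed the threshold.

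For some genes the other cells had a fall and cluster 1 had values close to each other in both groups. Egln3, an oxygen-sensing prolyl hydroxylase, had 19.2 and 19.4 CPM against 19.1 and 20.8 CPM in cluster 1, and went from 8.32 to 4.34 CPM in the other cells (1.02 and 1.00). Lpcat2, a lysophospholipid acyltransferase, had 23.3 and 17.1 CPM against 20.9 and 18.7 CPM, and went from 28.1 to 11.7 CPM elsewhere (1.24 and 0.96). Pappa, the protease that cleaves IGF-binding proteins, had 225 and 178 CPM against 174 and 190 CPM, and 124 to 47.1 CPM elsewhere (1.26 and 0.35). None of the 3 passed the test within cluster 1, which by itself does not show that their levels were equal.

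In the other direction, Dgkg fell more in cluster 1 than elsewhere, where it went from 11.5 to 8.11 CPM, with differences of -1.10 ± 0.17 and -1.08 (adjusted p = 1.8e-05 and 0.0054), in 10 of 10 alternatives. Tnc went from 1769 to 1435 CPM in the other cells, and the differences were -0.58 ± 0.05 (2.3e-10) and -0.70 (3.0e-07). Megf11 rose less, with 35.8 to 267 CPM elsewhere (-1.06 and -1.03). The receptor phosphatase gene Ptprt had 25.8 and 24.6 CPM against 17.4 and 12.4 CPM, and 34.6 to 51.3 CPM elsewhere (-1.29 and -1.10). Slc9a9, an endosomal sodium-proton exchanger, had 34.5 and 28.3 CPM against 47.0 and 33.5 CPM with overlapping groups, and 35.5 to 122 CPM elsewhere (-1.40 and -0.88). Ntrk2, the receptor of BDNF, had 44.1 and 41.6 CPM against 27.8 and 17.8 CPM, and 18.02 to 16.7 CPM elsewhere (-0.79 and -0.75). With the library as a random effect (limma voom) the differences of Megf11 (adjusted p = 0.0525) and Ntrk2 (0.174) missed the threshold.

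**Figure D5:**
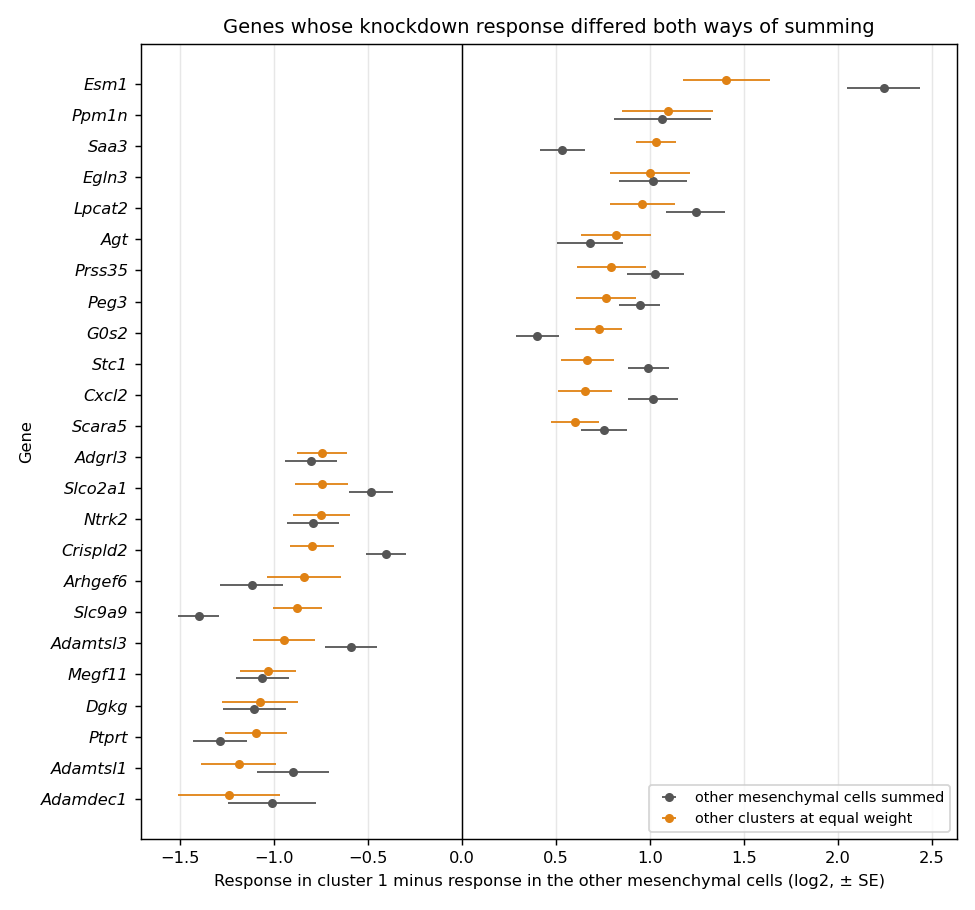
Difference of the knockdown response (log2, ± SE), cluster 1 minus the other mesenchymal cells, for the 12 largest in each direction at equal weight among genes that passed both ways; grey points are against the summed other mesenchymal cells and orange points against the other clusters at equal weight. Esm1 lies farthest to the right with 2.24 and 1.41, and Dgkg, Ptprt, Megf11 and Adamdec1 lie beyond -1 in both.

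Wnt4 rose in cluster 1 and in the other mesenchymal cells, where it went from 34.1 to 91.0 CPM. Its difference, -0.49 ± 0.12, passed against all other mesenchymal cells (adjusted p = 0.0136) but not at equal weight (-0.10, adjusted p = 0.951). The deposited Wnt4+ fibroblast cluster 7 held 7, 32, 1362 and 971 cells in the 4 libraries. The marker genes Gdf10 (0.73 and 0.23) and Sorcs1 (0.40 and -0.21) also passed the first way and not the second.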

How the data were processed

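The UMI counts per gene and cell were deposited by the authors as 1 matrix of 32285 genes and 45936 cells, with a table of cell annotations. Per the labels' protocols the libraries came from a 10x Multiome kit, and per the submitters' processing notes the build was GRCm38 (mm10). Neither the aligner nor the counter is named in the sources used here. The mitochondrial percent and the ATAC doublet enrichment ratio per cell were also deposited by the authors, and 35.0% was the highest mitochondrial share in the files. A further 50 annotation columns were not used.

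Raw UMI counts of cluster 1 were summed per library and compared with edgeR 4.0.16 (quasi-likelihood test, TMM scaling, filterByExpr, Benjamini-Hochberg adjusted p under 0.05, R 4.3.3). All 4 libraries, 2 per group, entered the fit. Where nothing says that replicates were separate cultures, p-values cover only how far these libraries spread, and that spread may be technical. The response was compared with that of the other mesenchymal cells by an interaction term with the library as a block. DESeq2 1.42.0, limma 3.58.1, other scalings and filters, the replicate block and leaving out each library were alternatives. No doublet caller was run, and an alternative left out the 10% of cells with the highest deposited enrichment. The script was tested on simulated data. Shares have exact 95% binomial (Clopper-Pearson) intervals that cover counting error only.

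Named genes were the targets, Wnt4 and the given markers, the 15 highest ratios, and the 12 largest rises and 12 largest falls of at least 10 CPM without overlap whose epithelial level was at most 5 times that in cluster 1. The 8 largest differences of response in each direction and examples from 40 gene lists completed them. Other names, among them the genes that passed against both forms of the other mesenchymal cells and those under the stricter epithelial limit, were chosen after their values were seen. Members and lists were chosen with earlier results of these data known. Some genes that met these rules are not reported here. GENCODE vM21 gave positions.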

Additional observations from a re-analysis of the deposited data

Results flagged for a closer look

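The knockdown response in cluster 1 differed from that in the other mesenchymal cells, by the interaction term, for the following named genes. Values are the log2 difference, cluster 1 minus the other mesenchymal cells, whose clusters differed between the groups. Among the given markers it was 0.77 for Fbln1, 0.73 for Gdf10 and 0.40 for Sorcs1, and it was -0.49 for Wnt4. Among the genes with a high ratio in cluster 1 it was 2.24 for Esm1, 0.80 for Kcnma1, 0.76 for Gria4, 0.74 for Nppc, 0.43 for Ly6a and 0.32 for Il11, and it was -1.10 for Dgkg and -1.68 for Slc6a5. Of the largest rises, Angpt2 had a difference of -1.502, Cldn2 of -0.69, Etl4 of -0.59 and Cebpb of -0.25.

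Further positive differences were 1.58 for Ccn5, 1.56 for Opcml, 1.48 for Ptx3, 1.38 for Tll1, 1.32 for Ptger3, 1.26 for Pappa and 1.24 for Lpcat2. Further negative ones were -1.40 for Slc9a9, -1.29 for Ptprt, -1.21 for Slc23a2, -1.19 for Cxcl13 and -1.12 for Arhgef6. With the other clusters at equal weight Esm1, Fbln1, Pappa, Lpcat2, Slc9a9, Ptprt, Slc23a2, Arhgef6 and Dgkg passed in the same direction.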

How the results depend on the processing

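Of the 633 genes changed in cluster 1, the count moved to 355 with DESeq2, 1007 without a filter on low counts, 159 among cells under 20% mitochondrial UMIs, 419 after a correction for gene span and 1405 with the replicate block. Leaving out 1 library in turn gave 359 (without knockdown library 2) to 1461 (without control library 2), where the lone library of a group was assumed to vary like the other group. Without scaling beyond the library total 182 rose and 310 fell, beside 292 and 341. Replicate numbers had a correlation of deviations of 0.12 over only 2 pairs, so they were not taken to pair the libraries, and the block gave 788 response differences. The 586 response differences moved to 46 with voom and a random effect and to 98 at equal weight, and ranged from 369 (without control library 1) to 577 with 1 library left out. The share of mesenchymal cells in cluster 1 differed by 3.20 points in the clusters with 50 cells in every library, a denominator chosen after seeing the data, and by -3.44 to 0.936 points with 1 library left out. Single log2 changes were recomputed for 148 chosen genes, 143 of them past the threshold, so they do not stand for all 633 calls. Of those calls 570 were tested under the mitochondrial limit, and 140 passed there. Of 2482 recomputed log2 changes in cluster 1, 2139 kept direction and side of the threshold, 333 lost it, 8 gained it and 2 reversed. Those 2 were Sorcs1 at -0.13 (mitochondrial limit) and -0.056 (finer label only, added after seeing the data). Differences were recomputed for 74 chosen genes, all past the threshold. Of 740 recomputed differences 638 kept both, 98 lost the threshold and 4 reversed: at equal weight Cxcl13 (0.10), Meg3 (-0.87) and Tmcc3 (0.41), and Saa3 (-0.0065 without knockdown library 1, 0.84 without knockdown library 2). The cause of these shifts was not tested, other than fewer cells or libraries where they were left out. Knockdown library 2 had the fewest UMIs in cluster 1, 4152769, which limits low genes.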

Other observations

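The finer deposited labels within cluster 1 shifted in make-up. "Unknown Mesenchymal" was the label of 8.91% and 7.98% of cluster 1 cells in the control libraries and of 2.46% and 0.751% in the knockdown libraries. "Inflammatory fibroblasts-1" was the label of 1.02% and 2.29% against 8.59% and 4.13%. Both groups were apart for each label, but 2 against 2 libraries allow no exact permutation p below 0.333, and no test was run.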
